A study of Mus musculus with 11 samples.

Results

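The genes described here encode the subunits of the proteasome and its interferon-inducible form, the immunoproteasome, measured in T cells sorted from mouse kidneys with glomerulonephritis. They are the genes that the deposited count table marks as protein coding and whose symbols begin with Psma, Psmb, Psmc, Psmd or Psme, which gave 42 of the 46078 genes in the table. Of these, 40 passed the filter on low counts and were tested: 30 constitutive subunits of the core and cap, 4 inducible genes (Psmb8, Psmb9, Psmb10 and Psme2) and 6 others. The 2 members that did not pass were Psma8, a core subunit of testis, and Psmb11, a catalytic subunit of the thymic cortex. The table gives Psme1, Psmb6 and Psmd5 another biotype, so they are not members by the rule. They were tested with the rest and are described apart, Psme1 beside the other inducible genes, and they enter no count of the 40 members.

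Wild-type mice were immunised with recombinant mouse myeloperoxidase (MPO), a neutrophil enzyme targeted in vasculitis, and then given a small dose of sheep globulin against basement membrane, which starts kidney inflammation. After 21 days, CD4 and CD8 T cells were sorted from the kidneys by CD127, the IL-7 receptor alpha chain, and PD-1, a receptor of stimulated T cells. The 4 groups were CD4+CD127-PD-1+ (n = 2), CD4+CD127+PD-1- (n = 3), CD8+CD127-PD-1+ (n = 3) and CD8+CD127+PD-1- (n = 3), and each library holds cells pooled from 3 animals, so errors describe pools. The CD4+CD127-PD-1+ group has fewer libraries because another of its samples did not pass quality control. All groups came from mice given both agents, and their age and sex are not stated in the labels.

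The 20S proteasome is a barrel of stacked rings of alpha subunits (Psma genes) and beta subunits (Psmb genes) that cuts proteins marked with ubiquitin into peptides, and the 19S cap of ATPases (Psmc) and other subunits (Psmd) unfolds the proteins and feeds them in. Interferon gamma induces Psmb8, Psmb9 and Psmb10, whose products replace the catalytic subunits encoded by Psmb5, Psmb6 and Psmb7 to form the immunoproteasome. The PA28 activator, made of the products of Psme1 and Psme2, opens the barrel as an alternative cap. Peptides from these complexes feed antigen presentation on class I molecules, and lymphocytes are known to carry immunoproteasomes in the resting state.

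Levels are given as CPM, the count of a gene scaled by edgeR to library size. Library totals were 10572505 to 16057310 counts, and mitochondrial genes took 38.5 to 44.8% of counts in CD8+CD127-PD-1+ libraries against 30 to 33.8% in all others. Il7r, the gene of the sorted CD127, had log2 fold changes of -4.17 and -4.51 for CD127-PD-1+ over CD127+PD-1- cells in CD4 and CD8 cells. All 8 pan-T marker genes were measured, and none was called between states. Markers of other cells did differ by state. All 10 macrophage markers were higher in CD127-PD-1+ cells of both lineages, with summed levels of 1074.1 to 2246.5 CPM in the CD127-PD-1+ against 49.9 to 114 CPM in the CD127+PD-1- state of CD4 cells and 1102.1 to 2163.6 CPM in the CD127-PD-1+ against 60.7 to 123 CPM in the CD127+PD-1- state of CD8 cells. Of 6 plasmacytoid dendritic cell markers, 4 were lower in CD4 (101 to 391 CPM in the CD127-PD-1+ against 581 to 1216.2 CPM in the CD127+PD-1- state, summed) and 3 in CD8 CD127-PD-1+ cells (137 to 171 CPM in the CD127-PD-1+ against 449 to 887.5 CPM in the CD127+PD-1- state). Summed B cell markers were 10.4 to 69.1 CPM in the CD127-PD-1+ against 9.29 to 40.5 CPM in the CD127+PD-1- state of CD4 cells and 76.3 to 213 CPM in the CD127-PD-1+ against 10.1 to 48.8 CPM in the CD127+PD-1- state of CD8 cells (0 and 3 of 5 higher). Summed neutrophil markers were 22.3 to 30.9 CPM in the CD127-PD-1+ against 2.69 to 4.28 CPM in the CD127+PD-1- state of CD4 cells and 36.0 to 224 CPM in the CD127-PD-1+ against 2.28 to 14.1 CPM in the CD127+PD-1- state of CD8 cells (1 and 3 of 3 tested higher), and kidney tubule markers, none called, 27.0 to 49.97 CPM in the CD127-PD-1+ against 45.0 to 124 CPM in the CD127+PD-1- state of CD4 cells and 13.7 to 59.5 CPM in the CD127-PD-1+ against 7.20 to 255 CPM in the CD127+PD-1- state of CD8 cells. No gene of these lists was at 0 throughout a group. Macrophages also express proteasome and immunoproteasome genes, and the part of such RNA in the values below was not tested. In these bulk samples, fewer cells of a type and less RNA per cell cannot be told apart.

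Promoter sequences were compared because the inducible and constitutive genes are known to be controlled differently. In the RefSeq promoter table (GRCm38.p6, 250 bases before to 50 after each start), 38 of the 45 genes, members and the 3 kept apart, had 41 promoters. The sequences below are, on the strand of each gene, Psmb8 at chr17:34197945-34198244 (plus strand), Psmb9 at chr17:34187281-34187580 (minus), Psme1 at chr14:55578244-55578543 (plus), 1 of 2 promoters of Psma6 at chr12:55398575-55398874 (plus) and Psmd1 at chr1:86064369-86064668 (plus). They are shown because the first 3 are inducible genes, Psma6 carries the most matches to the letters CCGGAA and Psmd1 was the single member called between states. Capitals mark matches on either strand to CCGGAA (bound by ETS factors), TTCNNNGAA (the gamma-activated site) or a pair of GAAA runs with any 2 bases between them (an interferon response element), and the Psmb9 and Psmd1 windows hold none of them.
Psmb8: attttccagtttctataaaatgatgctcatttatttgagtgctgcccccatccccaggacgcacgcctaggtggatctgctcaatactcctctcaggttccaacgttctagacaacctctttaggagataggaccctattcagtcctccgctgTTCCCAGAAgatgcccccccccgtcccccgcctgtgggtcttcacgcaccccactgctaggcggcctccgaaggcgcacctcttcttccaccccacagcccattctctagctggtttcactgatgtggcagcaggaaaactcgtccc
Psmb9: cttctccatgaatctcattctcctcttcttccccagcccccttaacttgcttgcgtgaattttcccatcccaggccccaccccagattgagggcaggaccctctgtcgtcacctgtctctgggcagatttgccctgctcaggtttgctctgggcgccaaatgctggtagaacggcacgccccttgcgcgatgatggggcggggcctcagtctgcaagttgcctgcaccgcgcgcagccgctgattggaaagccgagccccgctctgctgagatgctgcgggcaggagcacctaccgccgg
Psme1: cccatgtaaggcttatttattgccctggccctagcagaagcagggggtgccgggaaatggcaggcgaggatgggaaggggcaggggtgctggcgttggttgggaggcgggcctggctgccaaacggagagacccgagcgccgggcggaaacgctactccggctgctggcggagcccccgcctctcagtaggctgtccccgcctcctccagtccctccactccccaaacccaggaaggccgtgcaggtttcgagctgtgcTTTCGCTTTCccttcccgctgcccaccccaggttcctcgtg
Psma6: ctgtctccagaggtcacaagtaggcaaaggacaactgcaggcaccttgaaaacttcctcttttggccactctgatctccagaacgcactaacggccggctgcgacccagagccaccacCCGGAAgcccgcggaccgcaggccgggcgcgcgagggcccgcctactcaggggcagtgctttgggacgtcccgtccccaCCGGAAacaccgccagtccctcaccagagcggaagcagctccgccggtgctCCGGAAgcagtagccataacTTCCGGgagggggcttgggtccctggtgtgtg
Psmd1: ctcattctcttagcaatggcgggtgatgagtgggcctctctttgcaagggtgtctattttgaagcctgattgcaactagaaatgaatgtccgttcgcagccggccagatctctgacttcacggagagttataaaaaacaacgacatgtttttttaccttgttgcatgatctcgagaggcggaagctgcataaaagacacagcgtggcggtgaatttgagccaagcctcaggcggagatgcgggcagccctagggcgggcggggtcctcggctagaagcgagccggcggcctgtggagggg

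The letters CCGGAA were found in 15 of 27 promoters of constitutive genes and in 0 of 6 promoters of inducible genes, against 14.9% of the 32851 promoters of this length in the table. TTCNNNGAA was found in 1 of 27 constitutive and 1 of 6 inducible promoters (Psmb8), against 8.3% of all. The paired GAAA motif was found in 2 of 27 and 1 of 6 (Psme1), against 3.44% of all. CCAAT boxes were in 10 of 27 and 1 of 6 promoters (37.4% of all) and the antioxidant core TGACNNNGC in 4 of 27 and 0 of 6 (12.4% of all). Both strands were searched, each promoter counted once per motif, and the matches are letters in a window, not bound sites. The windows of Psmb8, Psmb9, Psme1 and Psmd1 follow RefSeq starts that lie inside the gene spans given below. Sequence outside these windows, around the outer ends of those spans, was not searched. The Psma6 window shown also follows a start inside its gene, which spans 55384222 to 55418454 on chromosome 12. Its other promoter, at 55383972 to 55384271 by the outer end of that span, was searched and held no match to CCGGAA.

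Psme1 and Psme2 were the most abundant of these genes per length. Levels between genes are compared as CPM per kilobase (kb) of the principal transcript, averaged over the 11 libraries. Psme1 was the highest of the 45 genes at 181 CPM per kb, followed by Psme2 at 67.9, Psmb9 at 58.7 and Psmb4, a structural beta subunit, at 58.3 CPM per kb. Psmb8 ranked 6 at 49.4 CPM per kb and Psmb10 ranked 18 at 22.0 CPM per kb. The constitutive catalytic genes ranked 10 for Psmb6 (38.3 CPM per kb), 20 for Psmb7 (21.2) and 37 for Psmb5 (9.0). At the bottom stood Psmd9, a chaperone of cap assembly, at 3.81 CPM per kb, Psmc3ip at 2.96, Psma8 at 0.133 and Psmb11 at 0.0177 CPM per kb. Psmc3ip carries the prefix but encodes a recombination factor that binds a cap ATPase and is not a subunit. The order below Psme2 depends on the length used. With the merged length of all exons, Psme1 (91.2 CPM per kb) and Psme2 (37.0) kept the first ranks, while Psmb8 ranked 7 (23.8), Psmb9 11 (21.7), Psmb10 14 (16.9), Psmb6 15 (16.3), Psmb5 29 (9.0) and Psmb7 36 (7.20 CPM per kb).

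**Figure D1:**
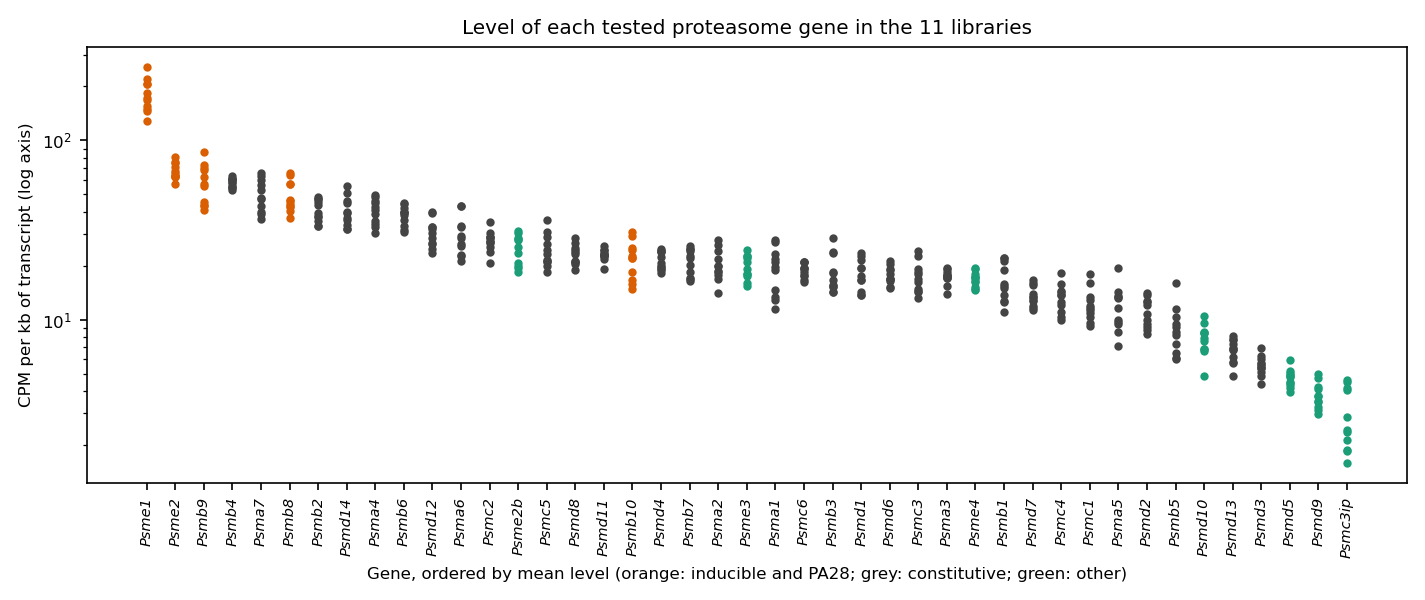
Level in CPM per kb of transcript (log axis) of the 43 tested genes, ordered by the mean over 11 libraries, with 1 point per library and colour by class. Psme1 (181 CPM per kb), Psme2 (67.9) and Psmb9 (58.7) stand at the top and Psmc3ip (2.96) at the bottom.

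Per length, Psmb8 exceeded its constitutive counterpart Psmb5 in every library. The Psmb8 to Psmb5 ratio was 5.74 to 7.57 in CD4+CD127-PD-1+, 5.84 to 6.62 in CD4+CD127+PD-1-, 3.54 to 7.02 in CD8+CD127-PD-1+ and 4.44 to 5.54 in CD8+CD127+PD-1- libraries. Psmb9 exceeded Psmb6 in every library too, with ratios of 1.74 to 1.75 in CD4+CD127-PD-1+, 1.17 to 1.4 in CD4+CD127+PD-1-, 1.39 to 2.41 in CD8+CD127-PD-1+ and 1.1 to 1.71 in CD8+CD127+PD-1- libraries. Between states, the Psmb9 to Psmb6 ratio did not overlap in CD4 cells and overlapped in CD8 cells. Psmb10 and Psmb7 were close, at ratios of 0.887 to 1.30 in CD127-PD-1+ and 0.825 to 0.899 in CD127+PD-1- CD4 cells, and 1.04 to 1.12 in CD127-PD-1+ and 1.03 to 1.23 in CD127+PD-1- CD8 cells. These ratios depend on the length used: with the merged length of all exons, Psmb8 to Psmb5 spanned 1.71 to 3.65, Psmb9 to Psmb6 0.955 to 2.09 and Psmb10 to Psmb7 1.87 to 2.95 over all libraries. The value below 1 came from CD8+CD127+PD-1- cells. Psme1 exceeded its partner Psme2 2.45 to 2.53 times in CD127-PD-1+ and 1.97 to 2.38 times in CD127+PD-1- CD4 cells, and 2.48 to 3.48 times in CD127-PD-1+ and 2.42 to 3.00 times in CD127+PD-1- CD8 cells. With the merged length, Psme1 to Psme2 spanned 1.82 to 3.21 over all libraries. Reads of Psme2 may be shared with its retrocopy Psme2b, and the effect of that on this ratio was not tested.

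**Figure D2:**
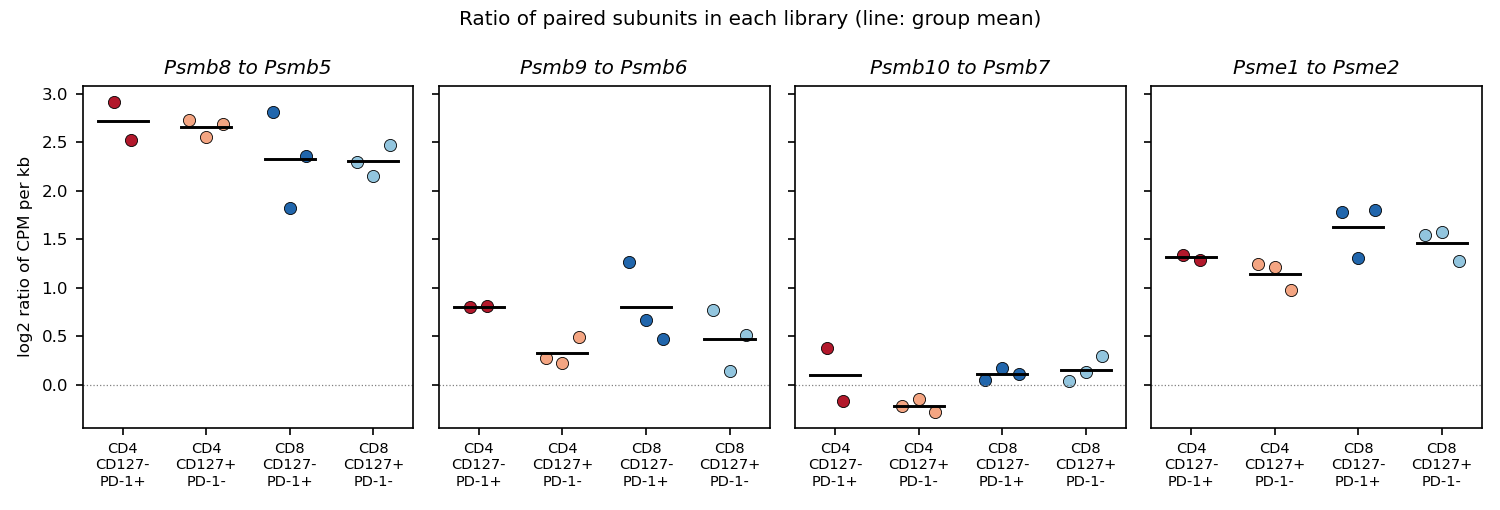
Ratio of paired subunits in each library on a log2 scale of CPM per kb, by sorted population, with a line at the group mean. The Psmb8 to Psmb5 ratio lies above 0 in all 11 libraries, and the Psmb10 to Psmb7 ratio lies near 0.

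Within CD4 cells, no proteasome gene passed the test between CD127-PD-1+ and CD127+PD-1- cells. By edgeR's quasi-likelihood test with Benjamini-Hochberg adjustment over 16365 genes, 0 of 40 members were called higher and 0 lower, against 6.81% and 4.86% of all tested genes. At an unadjusted p under 0.05, 4 members were higher and 0 lower (14.2% and 11.6% of all genes). DESeq2 called 1 member higher, Psmd1, and limma-voom called 0. The log2 fold change was above 0 for 35 of 40 members, against 51.9% of all genes, and below 0 for 5 (48.1%), with a median of 0.20 against 0.02 and a range of -0.18 to 0.58. For 36 of 40 members the 95% interval lay within a 2-fold change in either direction. Libraries did not overlap, with CD127-PD-1+ higher, for 7 members (Psmb8, Psmb9, Psmb10, Psmc1, Psmd1, Psmd13 and Psme4, against 21.3% of all genes) and for 0 members with it lower (19.4%).

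That upward shift in CD4 cells rested on 1 of the 2 CD127-PD-1+ libraries. Without CD4+CD127-PD-1+ replicate 2 the median of the 40 members was -0.04, with 17 above 0, and without replicate 1 it was 0.45, with 36 above 0. Leaving out any 1 of the 3 CD4+CD127+PD-1- libraries gave medians of 0.16 to 0.30.

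Among the inducible genes, the catalytic subunits had the largest CD4 state differences, none of them called. Psmb9 (ENSMUSG00000096727, chromosome 17, 34181987 to 34187764, minus strand, GRCm38), the inducible catalytic subunit beta1i, measured 75.0 and 99.2 CPM in CD4+CD127-PD-1+ libraries and 55.1, 61.1 and 58.7 CPM in CD4+CD127+PD-1- libraries. Both CD127-PD-1+ libraries lay above all 3 others. The log2 fold change was 0.58 (SE 0.19, 95% interval 0.15 to 1.00, adjusted p = 0.0806, edgeR). Over 15 alternative settings the log2 fold change ran from 0.35, without the 4 libraries whose descriptions hold the number 3, to 0.77, without CD4+CD127-PD-1+ replicate 1. The adjusted p ran from 0.0340 to 0.566, and 2 settings called it.

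Psmb8 (ENSMUSG00000024338, chromosome 17, 34197721 to 34201454, plus strand), the inducible chymotrypsin-like subunit beta5i, measured 75.0 and 107 CPM in CD4+CD127-PD-1+ and 66.0, 70.1 and 69.0 CPM in CD4+CD127+PD-1- libraries, without overlap (log2 fold change 0.42, SE 0.21, edgeR adjusted p = 0.235). Psmb10 (ENSMUSG00000031897, chromosome 8, 105935735 to 105938444, minus strand), the inducible trypsin-like subunit beta2i, measured 29.1 and 28.8 CPM in the CD127-PD-1+ against 20.7, 19.5 and 21.8 CPM in the CD127+PD-1- state, also without overlap (0.49, SE 0.19, edgeR adjusted p = 0.128). The 2 libraries of CD127-PD-1+ cells lay closest together for this gene. Psme1 (ENSMUSG00000022216, chromosome 14, 55578123 to 55581529, plus strand), the alpha subunit of PA28, measured 228.5 and 173 CPM in the CD127-PD-1+ against 167, 163 and 143 CPM in the CD127+PD-1- state, without overlap (0.35, SE 0.18, edgeR adjusted p = 0.245). Psme2, the PA28 beta subunit on the minus strand of chromosome 14, measured 78.0 and 61.1 CPM in the CD127-PD-1+ against 60.8, 61.1 and 62.9 CPM in the CD127+PD-1- state (0.17, SE 0.15, edgeR adjusted p = 0.510) and overlapped. The same alternatives moved these values, with Psmb8 at 0.12 without the number 3 libraries and 0.65 without CD4+CD127-PD-1+ replicate 1. Psme1 had 0.13 without that replicate 1 and 0.54 without replicate 2, and Psme2 -0.01 and 0.35 in those settings. For Psmb10 they ran from 0.45 to 0.55. Summed over the 5 inducible genes, levels were 470 to 486 CPM in CD4+CD127-PD-1+ against 356 to 375 CPM in CD4+CD127+PD-1- libraries, without overlap. That sum holds Psme1, which is not a member and was lower in the CD4+CD127-PD-1+ library where Psmb8 and Psmb9 were higher. Its narrow range in these libraries thus combines opposite differences. The 3 inducible catalytic genes alone summed to 179 to 235 CPM in CD4+CD127-PD-1+ against 142 to 151 CPM in CD4+CD127+PD-1- libraries, also without overlap. The 30 constitutive members summed to 920 and 1278.9 CPM in the CD127-PD-1+ against 897 to 1056.9 CPM in the CD127+PD-1- state and overlapped.

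None of the constitutive catalytic genes was called in CD4 cells. Psmb5 measured 5.44 and 10.3 CPM in CD4+CD127-PD-1+ against 5.46, 6.60 and 5.86 CPM in CD4+CD127+PD-1- libraries (log2 fold change 0.40, 95% interval -0.31 to 1.1). Psmb6 measured 25.4 and 33.5 CPM in the CD127-PD-1+ against 26.7, 30.8 and 24.7 CPM in the CD127+PD-1- state (0.10, -0.26 to 0.46), and Psmb7 19.8 and 28.8 CPM in the CD127-PD-1+ against 21.3, 19.2 and 23.3 CPM in the CD127+PD-1- state (0.19, -0.25 to 0.63). The states overlapped for all 3, and each turned sign in some of the alternative settings. Without the number 3 libraries Psmb5 had -0.17 and Psmb6 -0.20, and without CD4+CD127-PD-1+ replicate 2 Psmb7 had -0.10, while without replicate 1 the 3 genes had 0.79, 0.29 and 0.44.

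**Figure D3:**
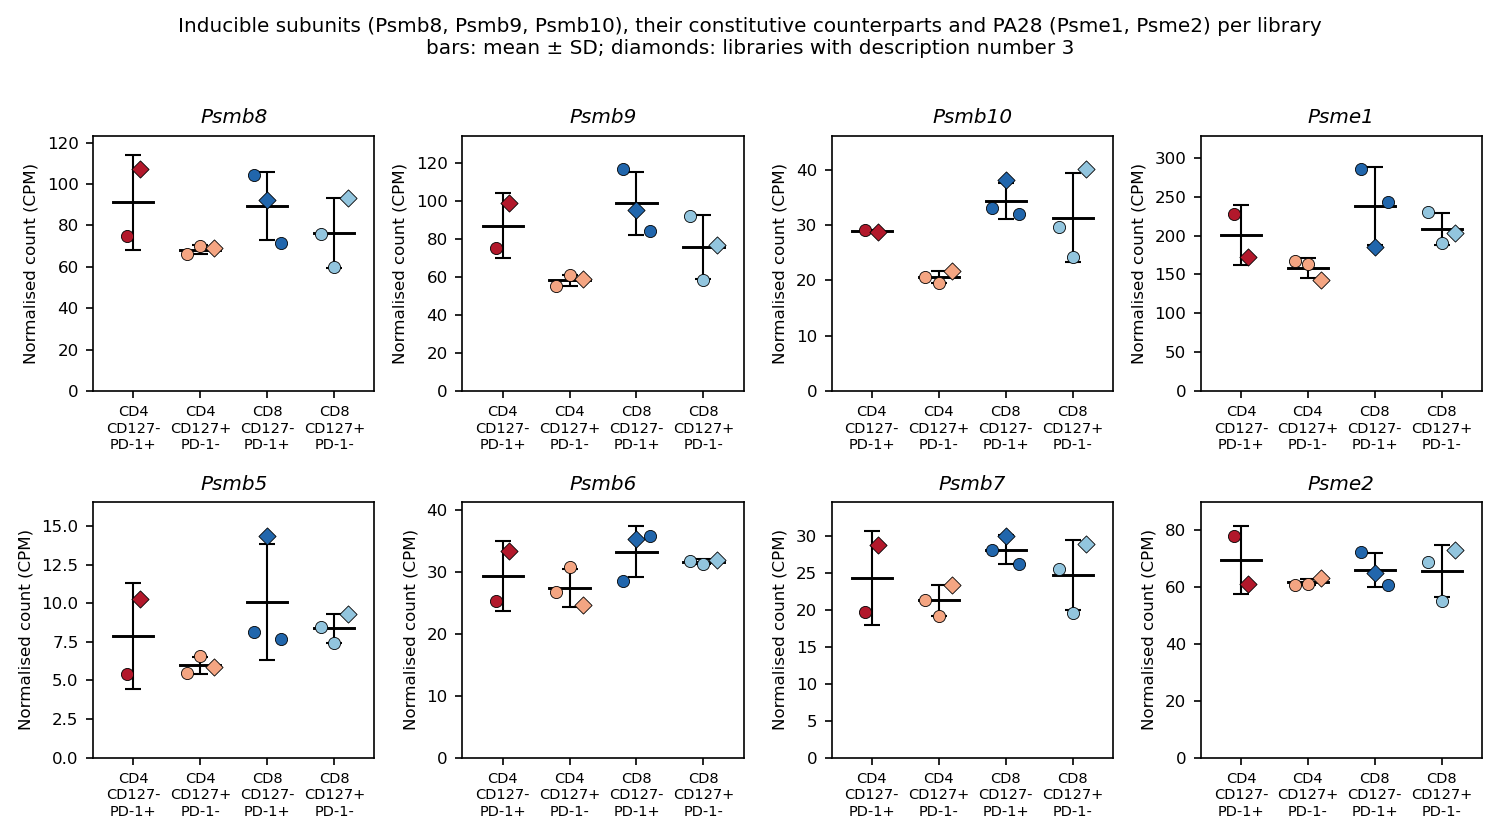
Normalised counts (CPM, linear axes from 0) of the 3 inducible catalytic subunits, their constitutive counterparts and the PA28 genes in each library, with mean and SD. Diamonds mark the library of each population with the number 3 in its description. Psmb9 lies at 75.0 and 99.2 CPM in CD4+CD127-PD-1+ libraries, above the 3 CD4+CD127+PD-1- libraries, while in CD8 cells the states overlap.

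In CD8 cells, 1 member rose in the CD127-PD-1+ state. Psmd1 (ENSMUSG00000026229, chromosome 1, 86064387 to 86139151, plus strand), the large scaffold subunit Rpn2 of the 19S base, measured 60.7, 72.9 and 70.9 CPM in CD8+CD127-PD-1+ and 52.1, 42.6 and 54.3 CPM in CD8+CD127+PD-1- libraries. All 3 CD127-PD-1+ libraries lay above the others. The log2 fold change was 0.46 (SE 0.13, 95% interval 0.17 to 0.74, edgeR adjusted p = 0.0345). In CD4 cells the same gene measured 60.4 and 67.1 CPM in the CD127-PD-1+ against 44.6, 51.9 and 42.8 CPM in the CD127+PD-1- state, also without overlap (0.46, SE 0.14, edgeR adjusted p = 0.0647). The CD8 call was lost without CD8+CD127-PD-1+ replicate 2 (adjusted p = 0.111) or 3 (0.107) and without CD8+CD127+PD-1- replicate 1 (0.0638) or 2 (0.130), with log2 fold changes of 0.36 to 0.49, and without the 4 number 3 libraries (0.118). Exons of Psmd1 share 301 bases with Gm21972 on the same strand and 252 bases with Htr2b on the opposite strand, 4.1% and 3.5% of its exon length.

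Across the 40 members in CD8 cells, that 1 call compares with 9.06% of all genes called higher, and 0 members were called lower against 6.56% of all genes. At an unadjusted p under 0.05, 2 members were higher and 0 lower (16.4% and 13.1% of all genes), while DESeq2 and limma-voom each called 1 higher and 0 lower. The other of the 2 was Psmc1, an ATPase of the base, at 20.5, 28.6 and 25.4 CPM in the CD127-PD-1+ against 18.97, 17.4 and 18.5 CPM in the CD127+PD-1- state (0.44, SE 0.15, edgeR adjusted p = 0.0682), named here because of its value. The log2 fold change was above 0 for 36 of 40 members, against 50.9% of all genes, and below 0 for 4 (49.1%), with a median of 0.20 against 0.01. For 38 of 40 members the 95% interval lay within a 2-fold change. Libraries did not overlap for 4 members higher (Psma1, Psmc1, Psmd1 and Psmd10, 18.0% of all genes) and 1 lower (16.4%). That 1 was Psmd3, a lid subunit, at 10.4, 12.2 and 10.9 CPM in the CD127-PD-1+ against 12.2, 14.9 and 13.4 CPM in the CD127+PD-1- state (-0.28, SE 0.16, edgeR adjusted p = 0.278). Leaving out 1 CD8 library at a time gave medians of 0.09 to 0.32, with 26 to 37 members above 0. The lowest 2 medians, 0.09 each, came without CD8+CD127-PD-1+ replicate 2 and without CD8+CD127+PD-1- replicate 2.

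Of the inducible genes none was called between CD8 states, and the libraries of the states overlapped for all 5. Psmb9 measured 117, 95.4 and 84.4 CPM in CD8+CD127-PD-1+ against 92.2, 58.4 and 77.0 CPM in CD8+CD127+PD-1- libraries (log2 fold change 0.38, SE 0.18, edgeR adjusted p = 0.170). Psmb8 measured 104, 92.6 and 71.5 CPM in the CD127-PD-1+ against 75.8, 59.8 and 93.4 CPM in the CD127+PD-1- state (0.23, SE 0.19, adjusted p = 0.459, edgeR). For both, 1 or more CD8+CD127+PD-1- libraries reached into the range of the CD127-PD-1+ libraries. Psmb10 measured 33.0, 38.2 and 32.0 CPM in the CD127-PD-1+ against 29.7, 24.2 and 40.2 CPM in the CD127+PD-1- state (0.13, 95% interval -0.24 to 0.50). Psme1 measured 286, 186 and 243 CPM in the CD127-PD-1+ against 231, 191 and 204 CPM in the CD127+PD-1- state (0.19, -0.15 to 0.54), and Psme2 72.2, 64.9 and 60.5 CPM in the CD127-PD-1+ against 68.7, 55.1 and 72.8 CPM in the CD127+PD-1- state (0.01, -0.28 to 0.30). Psme2 thus had the smallest difference of the 5. Their constitutive counterparts, not called either, had log2 fold changes of 0.26 for Psmb5 (-0.36 to 0.89), 0.07 for Psmb6 (-0.25 to 0.39) and 0.19 for Psmb7 (-0.21 to 0.58). Over 16 alternative settings, Psmb9 ran from 0.23 to 0.55, Psmb8 from 0.08 to 0.40 and Psme1 from 0.04 to 0.35. Psmb10 (-0.02 without CD8+CD127+PD-1- replicate 2, 0.35 without its replicate 3), Psme2 (-0.10 and 0.09 in the same settings) and Psmb5 (-0.08 without CD8+CD127-PD-1+ replicate 2, 0.43 without its replicate 3) turned sign.

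Levels were also summed by structural class, without a test. The 7 alpha ring genes, which gate the barrel, summed to 211 and 347 CPM in CD4+CD127-PD-1+ against 222 to 285 CPM in CD4+CD127+PD-1- libraries, and to 270 to 344 CPM in the CD127-PD-1+ against 222 to 296 CPM in the CD127+PD-1- state of CD8 cells. The 6 ATPase ring genes summed to 169 and 234 CPM in the CD127-PD-1+ against 166 to 196 CPM in the CD127+PD-1- state of CD4 cells and 187 to 230 CPM in the CD127-PD-1+ against 156 to 209 CPM in the CD127+PD-1- state of CD8 cells. The 8 lid genes, among them the deubiquitinase Psmd14, summed to 272 and 348 CPM in the CD127-PD-1+ against 254 to 296 CPM in the CD127+PD-1- state of CD4 cells and 291 to 343 CPM in the CD127-PD-1+ against 262 to 323 CPM in the CD127+PD-1- state of CD8 cells. The 4 structural beta genes summed to 128 and 169 CPM in the CD127-PD-1+ against 126.7 to 145.5 CPM in the CD127+PD-1- state of CD4 cells and 146 to 175 CPM in the CD127-PD-1+ against 126 to 168 CPM in the CD127+PD-1- state of CD8 cells. All 4 classes overlapped between states in both lineages. The 3 other base genes, Psmd1, Psmd2 and the ubiquitin receptor Psmd4, summed to 114.5 and 142 CPM in the CD127-PD-1+ against 93.5 to 110 CPM in the CD127+PD-1- state of CD4 cells and 125 to 146 CPM in the CD127-PD-1+ against 94.8 to 121 CPM in the CD127+PD-1- state of CD8 cells, without overlap in either, and Psmd1 is part of that sum. Taken singly, Psmd2 (log2 fold changes of 0.38 in CD4 and 0.26 in CD8 cells) and Psmd4 (0.01 and 0.03) overlapped between states in both lineages.

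Psme4, the activator PA200, measured 112 and 126 CPM in the CD127-PD-1+ against 95.5, 96.6 and 105 CPM in the CD127+PD-1- state of CD4 cells (0.26, SE 0.12, edgeR adjusted p = 0.175) and Psme3, the nuclear activator PA28 gamma, had log2 fold changes of 0.12 in CD4 and -0.23 in CD8 cells. Assembly chaperones of the cap, Psmd5, Psmd9 and Psmd10, had log2 fold changes of -0.00, -0.11 and 0.12 in CD4 and 0.09, 0.08 and 0.42 in CD8 cells. Psme2b, a retrocopy of Psme2 whose reads may be shared with it, had -0.18 and 0.22, and Psmc3ip 0.50 and 0.67. None of these passed the test.

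**Figure D4:**
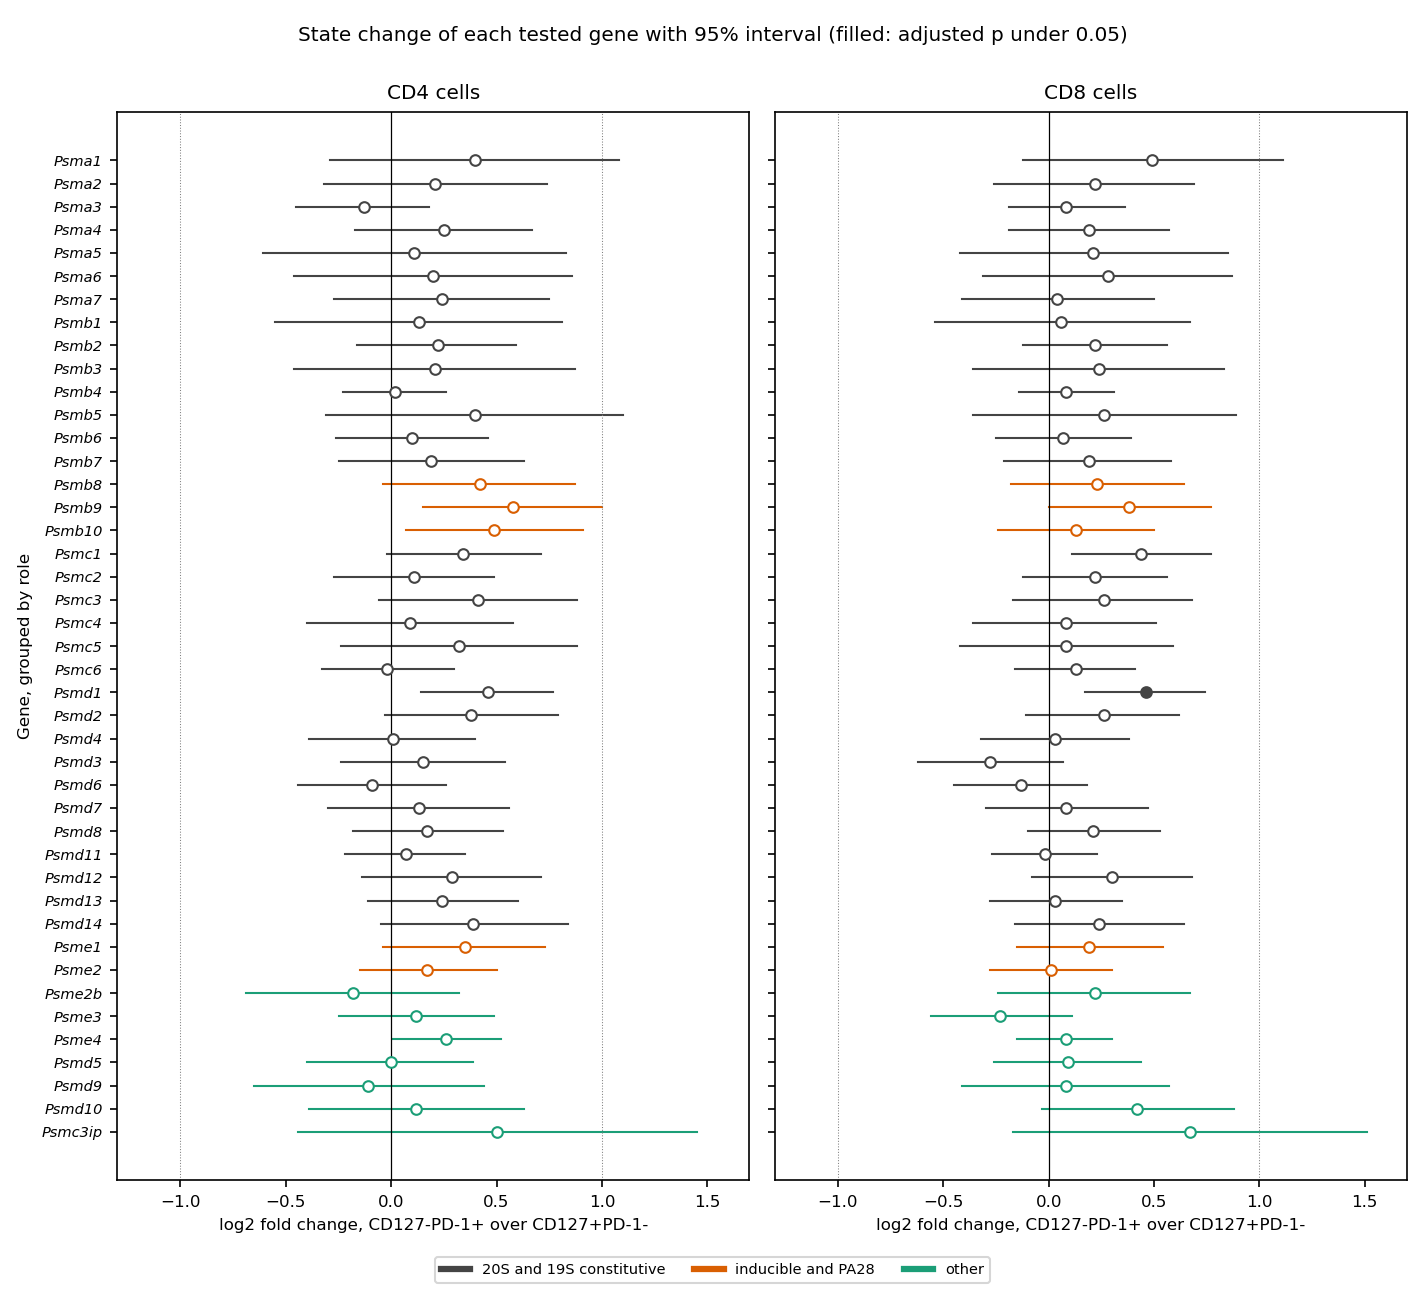
Log2 fold change of CD127-PD-1+ over CD127+PD-1- cells with 95% interval for each tested gene, in CD4 cells (left) and CD8 cells (right). Dotted lines mark a 2-fold change, and the single filled point is Psmd1 in CD8 cells (0.46).

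Between lineages, no member passed the test in either state. Among CD127-PD-1+ cells, 0 of 40 members were called higher and 0 lower in CD4 than in CD8 cells, against 1.6% and 0.843% of all genes, and 0 had an unadjusted p under 0.05 in either direction (7.13% and 6.15%). DESeq2 and limma-voom called 0. CD4 over CD8, 13 of 40 members had a log2 fold change above 0 (48.1% of all genes) and 27 below 0 (51.8%), with a median of -0.09 against -0.02. Libraries did not overlap for 0 members higher (14.2%) and 4 lower in CD4 (13.5%). Among CD127+PD-1- cells, 0 of 40 were called higher and 0 lower, against 2.76% and 1.66% of all genes. There 3 members were lower at an unadjusted p under 0.05 (8.45% of all genes) and 0 higher (9.22%), limma-voom called 0 and DESeq2 called 1 lower, Psmb10. Here 9 of 40 members had a log2 fold change above 0 (48.7%) and 31 below 0 (51.2%), with a median of -0.12 against -0.01, and libraries did not overlap for 2 higher (11.9%) and 7 lower in CD4 (10.9%). Both medians moved with single libraries. In CD127-PD-1+ cells the median was 0.11 (28 members above 0) without CD4 replicate 1 and -0.30 (4 above 0) without CD4 replicate 2. In CD127+PD-1- cells it was 0.01 (22 above 0) without CD8 replicate 3 and -0.21 (3 above 0) without CD8 replicate 2.

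Psmb10 had the largest lineage difference of the 40 members in CD127+PD-1- cells. It measured 20.7, 19.5 and 21.8 CPM in CD4 and 29.7, 24.2 and 40.2 CPM in CD8 libraries, without overlap. The 40.2 CPM came from the number 3 library, 0.57 log2 units above the mean of the other libraries of its group. Over 16 alternative settings, the log2 fold change of Psmb10 ran from -0.76 to -0.39. Its log2 fold change was -0.61 (SE 0.17, 95% interval -0.98 to -0.23, edgeR adjusted p = 0.0779), with adjusted p values of 0.0241 to 0.307 over 16 alternative settings, 3 of which called it. Psme1 was lower too, at 167, 163 and 143 CPM in CD4 cells against 231, 191 and 204 CPM in CD8 cells (-0.40, SE 0.16, edgeR adjusted p = 0.206), and did not overlap. Psmb9 (-0.38), Psmb8 (-0.16) and Psme2 (-0.09) also lay below 0 in this state, while in CD127-PD-1+ cells the 5 inducible genes ranged from -0.25 to 0.08.

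The state changes themselves were set against each other between the lineages. By the interaction contrast, 0 of 40 members were called in either direction by edgeR, against 0.00611% and 0.0% of all genes, 0 had an unadjusted p under 0.05 (2.4% and 3.08%), and DESeq2 and limma-voom called 0. That contrast was above 0 for 21 of 40 members (50.7%) and below 0 for 19 (49.3%), with a median of 0.01. This even split depended on the 2 CD4+CD127-PD-1+ libraries. Without replicate 1 of that group the median was 0.26, with 34 members above 0. Without its replicate 2 the median was -0.20, with 8 above 0, and without the 4 number 3 libraries it was -0.18, also with 8. The difference of the CD4 and CD8 state changes was 0.36 for Psmb10 (SE 0.26), and 0.15 to 0.36 across the 5 inducible genes. The 95% interval reached a median of 0.57 to each side of the estimate on the log2 scale, so differences between the lineages were estimated with limited precision.

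A pattern across libraries, seen in these data and not planned, touches most values above. The description of each library holds a number, and the 4 libraries with the number 3, 1 in each group, had higher levels of most constitutive subunits than the rest of their group. They were the highest of their group for 29 of 30 constitutive members in CD4+CD127-PD-1+, 20 in CD4+CD127+PD-1-, 27 in CD8+CD127-PD-1+ and 25 in CD8+CD127+PD-1- cells, against 46.9%, 34.7%, 31.7% and 36.2% of all genes. The median log2 differences from the other libraries of the group were 0.48, 0.24, 0.28 and 0.32, against -0.03 to 0.00 over all genes, and 21 of 30 genes lay above 0 in all 4 groups. Psmb1, a structural beta subunit, had 0.97, 0.51, 0.45 and 0.66, and the alpha subunit Psma6 had 1.01, 0.37, 0.63 and 0.43. Among the inducible genes, Psme1 lay below 0 in all 4 groups (-0.40, -0.20, -0.50 and -0.04), and the medians of the 5 inducible genes were -0.01, 0.02, -0.03 and 0.24.

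**Figure D5:**
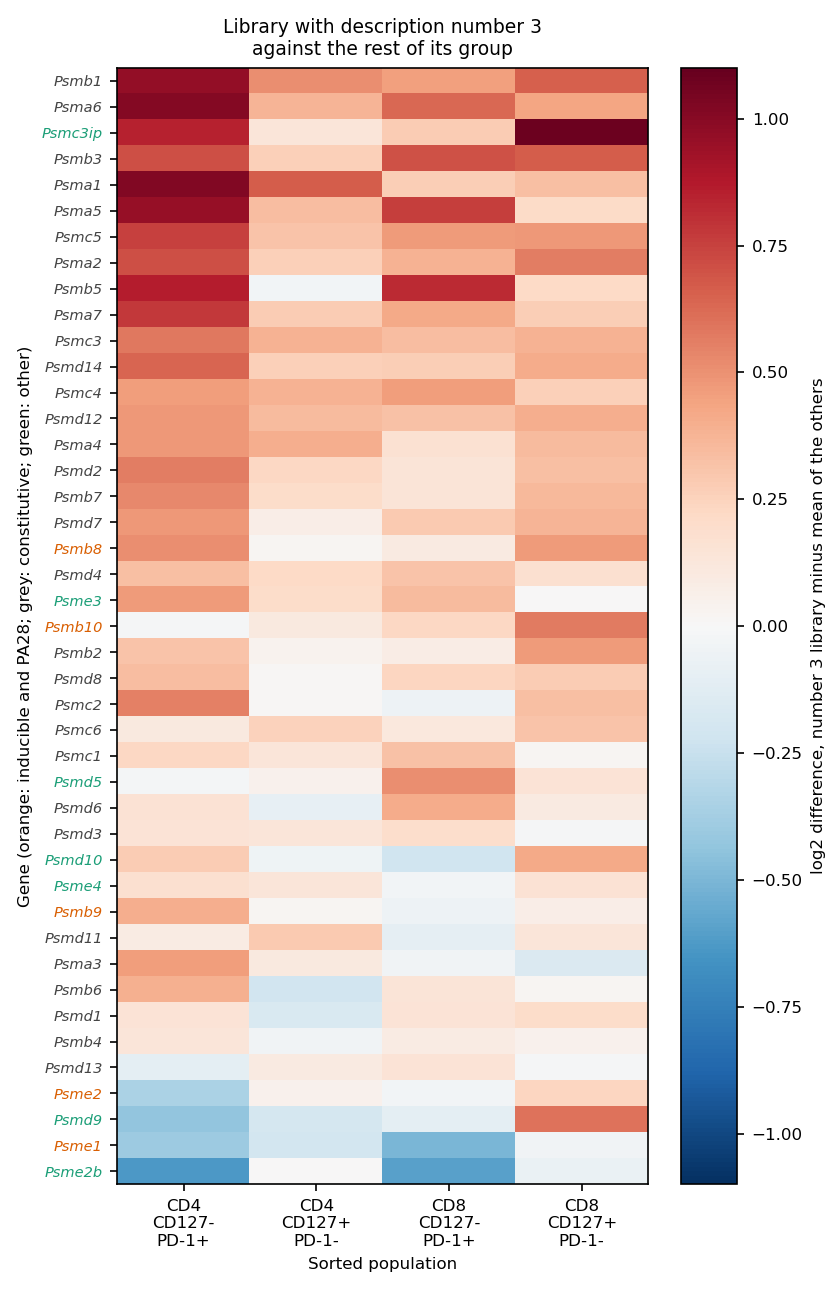
Log2 difference between the library with description number 3 and the mean of the other libraries of its population, for each gene (rows) in the 4 populations (columns). Constitutive subunits such as Psmb1 (0.97, 0.51, 0.45 and 0.66) are mostly red and Psme1 is blue in each column.

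What the number stands for is not given in the labels. Across the 30 constitutive genes, the mean difference had a Spearman rho of -0.45 and a Pearson r of -0.45 with log2 transcript length, a description over genes of the same libraries. The part of RNA quality or batch in this pattern was not tested. In comparisons of single libraries with the same number, 1 against 1, the median CD4 state difference of the 30 constitutive genes was -0.09 for number 2 and 0.32 for number 3, and the median CD8 state difference was 0.11 for number 1 and 0.13 for number 3. For the 5 inducible genes it was 0.35 and 0.40 in CD4 cells and 0.31 and -0.07 in CD8 cells. With the 4 libraries left out, a choice made after seeing the data, the median over the 40 members was -0.01 in the CD4 state comparison, with 19 above 0, and 0.21 in the CD8 state comparison, with 31 above 0.

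Genes that assemble, regulate or use the proteasome were counted by list. Over all genes, 6.81% were called higher and 4.86% lower in the CD4 state comparison, and 9.06% and 6.56% in the CD8 one. List counts near these shares are no result about the lists, and the genes named are described one by one. Of 5 core assembly chaperones, 1 rose in CD127-PD-1+ cells of both lineages. This was Pomp, the chaperone that matures the 20S core, at 89.7 and 95.9 CPM in the CD127-PD-1+ against 64.8, 70.9 and 67.6 CPM in the CD127+PD-1- state of CD4 cells (log2 fold change 0.45, SE 0.12, edgeR adjusted p = 0.0270) and 114, 105 and 114 CPM in the CD127-PD-1+ against 88.0, 70.1 and 82.1 CPM in the CD127+PD-1- state of CD8 cells (0.47, SE 0.10, edgeR adjusted p = 0.0106). The libraries of the states did not overlap in either lineage. The median of the list was -0.14 in CD4 and -0.10 in CD8 cells. The CD4 call was lost when any 1 of the 5 CD4 libraries was left out (adjusted p = 0.0524 to 0.136). The CD8 call was kept when any 1 CD8 library was left out and was lost without the 4 number 3 libraries (adjusted p = 0.0624), as was the CD4 call (0.279).

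Of 13 regulators and associated factors found, 1 rose and 1 fell in the CD127-PD-1+ state of each lineage, with list medians of -0.02 in CD4 and 0.10 in CD8 cells. Zfand5, a zinc finger protein that stimulates the proteasome, measured 280 and 203 CPM in the CD127-PD-1+ against 162, 157 and 167 CPM in the CD127+PD-1- state of CD4 cells (0.58, edgeR adjusted p = 0.0446) and 242, 295 and 334 CPM in the CD127-PD-1+ against 141, 183 and 154 CPM in the CD127+PD-1- state of CD8 cells (0.87, edgeR adjusted p = 0.00285). Zfand2a, an arsenite-inducible factor of the proteasome, fell in CD4 cells, to 142 and 174 CPM in the CD127-PD-1+ state against 234.5, 228 and 274 CPM in the CD127+PD-1- state (-0.64, edgeR adjusted p = 0.0105), and by 0.45 in CD8 cells (edgeR adjusted p = 0.0236). In CD4 cells both calls were lost without replicate 1 of CD4+CD127-PD-1+ (0.337 for Zfand5 and 0.0963 for Zfand2a), and the Zfand5 call also without any 1 of the CD4+CD127+PD-1- libraries (0.0800 to 0.122). The CD8 call of Zfand2a was lost without CD8+CD127-PD-1+ replicate 2 or 3 or CD8+CD127+PD-1- replicate 2 (0.0636, 0.102 and 0.0797).

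Of 11 transcription factors and activating factors of proteasome genes, 0 were higher and 1 lower in CD4 and 2 higher and 1 lower in CD8 CD127-PD-1+ cells, with list medians of 0.21 and 0.11. Nfe2l2, the stress factor NRF2, rose by 0.74 in CD8 cells (82.0, 122.5 and 147 CPM in the CD127-PD-1+ against 73.7, 68.0 and 68.9 CPM in the CD127+PD-1- state, edgeR adjusted p = 0.0164), and Stat2, a factor of interferon signalling, by 0.66 (79.2, 93.5 and 117 CPM in the CD127-PD-1+ against 69.3, 56.2 and 57.8 CPM in the CD127+PD-1- state, edgeR adjusted p = 0.0207). Both calls were lost without CD8+CD127-PD-1+ replicate 3 (adjusted p = 0.0713 and 0.0901) and without CD8+CD127+PD-1- replicate 2 (0.0588 and 0.0792). The Nfe2l2 call was also lost without CD8+CD127-PD-1+ replicate 2 (0.0541) and the Stat2 call without CD8+CD127+PD-1- replicate 3 (0.0535). Ngly1, which removes sugars from the factor NRF1 to activate it, fell by 0.48 in CD4 and 0.38 in CD8 cells (edgeR adjusted p = 0.0274 and 0.0354). Its CD4 call was lost without CD127-PD-1+ replicate 1 or CD127+PD-1- replicate 2 or 3 (adjusted p = 0.0697 to 0.183), and its CD8 call without any 1 CD8 library other than CD127+PD-1- replicate 1 (0.0744 to 0.119). Irf1, an interferon-induced transcription factor, measured 78.0 ± 8.06 CPM in the CD127-PD-1+ against 97.2 ± 15.7 CPM in the CD127+PD-1- state of CD4 cells and 80.0 ± 9.57 CPM in the CD127-PD-1+ against 110 ± 15.0 CPM in the CD127+PD-1- state of CD8 cells (SD, n = 2 or 3 libraries). Irf1 was not called in either state comparison, with an edgeR adjusted p = 0.0512 in CD8 cells.

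Of 14 interferon gamma pathway genes, 2 were higher and 1 lower in CD4 and 1 higher and 1 lower in CD8 CD127-PD-1+ cells, with list medians of 0.00 and 0.08. The guanylate binding protein gene Gbp3 measured 37.7 and 34.3 CPM in the CD127-PD-1+ against 18.0, 13.5 and 19.05 CPM in the CD127+PD-1- state of CD4 cells (1.09, edgeR adjusted p = 0.0238) and had a log2 fold change of 0.82 in CD8 cells (edgeR adjusted p = 0.0420). Jak1, the kinase of the interferon receptors, fell by 0.45 in CD4 and by 0.53 in CD8 cells (edgeR adjusted p = 0.0105 and 0.00147), to 512 ± 19.2 CPM in CD8+CD127-PD-1+ against 739 ± 19.95 CPM in CD8+CD127+PD-1- cells. Irgm1 rose by 0.59 in CD4 cells (edgeR adjusted p = 0.0473) and was named because it was the other called gene. In CD4 cells the Gbp3 call was lost without either CD127-PD-1+ library or without CD127+PD-1- replicate 1 or 2 (adjusted p = 0.0569 to 0.105), the Irgm1 call without any 1 CD4 library (0.0937 to 0.152) and the Jak1 call without CD127-PD-1+ replicate 1 (0.0936). In CD8 cells the Gbp3 call was lost without CD127-PD-1+ replicate 2 or 3 or CD127+PD-1- replicate 1 or 2 (0.102 to 0.141), and the Jak1 call was kept without any 1 library.

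Of 15 class I antigen processing genes, 0 were called in CD4 cells and 2 were higher and 1 lower in CD8+CD127-PD-1+ cells, with list medians of 0.17 and 0.20. In CD8 cells the endoplasmic reticulum chaperones of the class I loading pathway, Pdia3 (203, 207 and 248 CPM in the CD127-PD-1+ against 152, 117 and 148 CPM in the CD127+PD-1- state) and Canx (280, 282 and 349 CPM in the CD127-PD-1+ against 233, 181.5 and 237 CPM in the CD127+PD-1- state), rose by 0.66 and 0.48 (edgeR adjusted p = 0.00468 and 0.0215), and the class I gene H2-K1 fell by 0.36 (edgeR adjusted p = 0.0461). The Canx call was lost without CD8+CD127-PD-1+ replicate 3 or CD8+CD127+PD-1- replicate 2 (adjusted p = 0.0940 and 0.0795) and the H2-K1 call without any 1 CD8 library other than CD8+CD127-PD-1+ replicate 1 (0.0517 to 0.177). The Pdia3 call was kept without any 1 library. Tap1, the peptide transporter gene that shares a divergent promoter region with Psmb9 and overlaps its exons by 212 bases on the opposite strand, had log2 fold changes of 0.30 in CD4 and 0.26 in CD8 cells, not called.

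Of 14 genes of ubiquitin supply and shuttling found, 0 were called in CD4 cells and 2 were lower in CD8+CD127-PD-1+ cells, with list medians of -0.04 and -0.05. The ubiquitin gene Ubb fell by 0.40 and Rps27a, which encodes ubiquitin fused to a ribosomal protein, by 0.66 (edgeR adjusted p = 0.0459 and 0.0282). Both calls were lost without any 1 CD8 library other than CD8+CD127-PD-1+ replicate 2 (adjusted p = 0.0628 to 0.168 for Ubb and 0.0603 to 0.115 for Rps27a). Without the 4 number 3 libraries, the CD4 calls of Zfand5, Jak1, Ngly1 and Irgm1 and the CD8 calls of Zfand2a, Nfe2l2, Stat2, Ngly1, Canx, H2-K1 and Ubb were lost as well (adjusted p = 0.0561 to 0.187). The cell cycle list, whose 6 genes were all higher in CD127-PD-1+ cells of the CD4 lineage and 1 of which was in the CD8 lineage, summed to 910.5 and 1656.5 CPM in the CD127-PD-1+ against 291 to 421 CPM in the CD127+PD-1- state of CD4 cells and 1179.4 to 1582.0 CPM in the CD127-PD-1+ against 357 to 1228.6 CPM in the CD127+PD-1- state of CD8 cells. Its part in the proteasome values was not tested.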

How the data were processed

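Raw read counts per gene, as deposited by the authors, were used without change. Per the labels' protocols, libraries were made from 2 ng of total RNA by single primer isothermal amplification and sequenced as 75-base single reads, and the submitters' processing notes name GRCm38, featureCounts and STAR. With tool versions and strandedness not given in the sources used here, reads of the 14 genes among 45 whose exons overlap another gene cannot be told apart by strand. The table's 1 column without a label was not used.

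The analysis used edgeR 4.0.16 (R 4.3.3): filterByExpr left 16365 genes, TMM scaled the libraries, and a quasi-likelihood model with 4 group means was fitted to 11 libraries. Adjusted p values are Benjamini-Hochberg over all tested genes (threshold 0.05). Fold changes are model estimates, intervals come from the SE and edgeR's total degrees of freedom (residual plus prior), and ratios had 0.5 added to each count. Lengths are from GENCODE M21. Alternatives used DESeq2 1.42.0, limma 3.58.1, other scaling, filters, blocks and libraries left out. The fits were tested on simulated data with changes larger than those of any member here and no added shift between libraries of a group. That check therefore does not bear on effects of the size reported. Members, lists and the naming rule were chosen with earlier results of these data known. The rule named Psmb8, Psmb9, Psmb10, Psme1, Psme2, Psmb5, Psmb6 and Psmb7, every other called member, and from each list the 2 called genes with the smallest p per state comparison. Others named were chosen after their values were seen. The values of 1 listed gene are not reported here.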

Additional observations from a re-analysis of the deposited data

How the results depend on the processing

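The CD4 state comparison called 0 members higher and 1 under each of 4 alternatives: no filter (Psmb9, adjusted p = 0.0402), a stricter filter of 50 counts in 2 libraries (Psmd1, 0.0490), the replicate block by description number (Psmb9, 0.0340) and DESeq2 (Psmd1, 0.0477). The CD8 state comparison called 1, and 0 without a filter (Psmd1, adjusted p = 0.0687), with the compared groups only (0.0530), with the replicate block by description number (0.119) and without the 4 number 3 libraries (0.118). Leaving out single libraries gave 0 to 2. For CD4 against CD8 in CD127+PD-1- cells, 0 members were called lower, and 1, Psmb10, without a filter (adjusted p = 0.0445) and by DESeq2 (0.0241), with 0 to 1 when single libraries were left out (0.0287 without CD8+CD127+PD-1- replicate 2). The cause of these changes was not tested. The labels do not say that a number marks a shared source. Deviations of same-numbered libraries correlated over 0.1 in 7 of 15 pairs by title and 10 of 12 by description, where all were above 0 (0.001 to 0.325), so the criterion of every pair over 0.1 was not met. The replicate block by title changed no count of members and ended the calls of H2-K1 in CD8 (0.0634) and Zfand5 in CD4 cells (0.0536). The block by description ended the CD8 calls of Nfe2l2 (0.0574), Zfand2a (0.0664), Stat2 (0.0776), Ubb (0.0975), Canx (0.104), Ngly1 (0.106), H2-K1 (0.107) and Gbp3 (0.110). Without a filter, the CD4 calls of Pomp (edgeR adjusted p = 0.0712), Irgm1 (0.07015) and Ngly1 (0.0538) were lost, as was Ngly1 in CD8 (0.0677). With the compared groups only, Pomp (0.0614) and Ngly1 (0.0909) in CD4 and Gbp3 (0.0733) and H2-K1 (0.0698) in CD8 lost theirs. Removing mitochondrial genes ended the CD4 calls of Irgm1 (0.0557) and Zfand5 (0.0566), and limma-voom that of Zfand5 (0.0574). Irgm1 gained a CD8 call under the stricter filter (0.0463) and DESeq2 (0.0371). Of 1336 alternative values of the 25 genes tried, 1223 kept their side of the threshold, 100 lost and 13 gained a call, and 0 called values reversed. Precision is limited by the number of pools (n = 2 or 3), with 95% intervals that reached a median of 0.42 (CD4) and 0.38 (CD8) log2 units to each side.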
